A study of Mus musculus with 8 samples.

Results

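Mature neutrophils carry antimicrobial proteins in granules that are filled in a fixed order as the cell matures, and hold S100 proteins free in the cytosol. The genes described are 10 mouse genes of this late programme, S100a8, S100a9, Ngp, Ltf, Camp, Lcn2, Mmp8, Mmp9, Retnlg and Chil3, taken by symbol from the 52097 genes of the deposited expression table. All 10 had a single Ensembl identifier. RNA had been sequenced from mouse bone marrow cells sorted as haematopoietic stem cells (CD48-CD150+LSK, that is, lineage-negative, Sca-1-positive and Kit-positive) 3 days after giving pIpC, which mimics viral RNA and sets off an interferon response. The 8 libraries were 5 controls, Nup214fl/fl mice whose loxP-flanked alleles were left intact for want of Cre, and 3 knockouts, Nup214fl/fl,Mx1-Cre mice, in which the interferon-inducible Mx1 promoter drives Cre in blood cells and also in other tissues. All 8 had been given pIpC; the sources used here do not give age, sex or whether each library was 1 animal. The comparison is of expression with intact and with Cre-targeted Nup214, which encodes a nucleoporin of the cytoplasmic face of the nuclear pore. Nup214 RNA was lower in the knockouts but not absent, as given below. Cre was present in the knockouts alone, so what Cre does by itself and what losing Nup214 does cannot be told apart.

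Primary granule proteins such as myeloperoxidase are made first, in promyelocytes. Secondary (specific) granule proteins follow in myelocytes and metamyelocytes, and tertiary granule proteins later still. Transcription factors of the C/EBP family, above all C/EBPε, are known to switch on the secondary granule genes, and mice and patients without it lack these granules. Haematopoietic stem cells lie far upstream of these stages. In bulk RNA, fewer cells of a type and less RNA per cell cannot be told apart.

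The genes lie in clusters on GRCm38, the assembly that mm10 names. S100a8 (chr3:90668978-90670035) and S100a9 (chr3:90692632-90695721) are neighbours, with Chil3 (chr3:106147554-106167564) on the same chromosome. Camp (chr9:109847379-109849617), Ngp (chr9:110419747-110423012) and Ltf (chr9:111019271-111042767) lie near each other, and Mmp8 (chr9:7558456-7568485) is on that chromosome too. Lcn2 (chr2:32384633-32388252) and Mmp9 (chr2:164940780-164955850) are far apart on chromosome 2, and Retnlg (chr16:48872621-48874496) is alone on chromosome 16. RefSeq's promoter table (GRCm38.p6, 300 bases each) held 9 of the 10 members. The core letters of the C/EBP site, TTGCNNAA on either strand, were found in 6 of these 9 promoters and in 10.8% of all 32851. The stretches holding the match are shown because C/EBP factors are the known regulators of this programme. The capitals mark the match, and each stretch is read 5′ to 3′ on the strand of its gene, before the RefSeq start. The stretch of Lcn2 lies within the gene span given above, so another annotated start of Lcn2 lies further upstream.
Ngp, chr9:110419635-110419712, plus strand: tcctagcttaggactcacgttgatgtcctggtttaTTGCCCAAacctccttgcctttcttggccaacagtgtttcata
Ltf, chr9:111019182-111019259, plus strand: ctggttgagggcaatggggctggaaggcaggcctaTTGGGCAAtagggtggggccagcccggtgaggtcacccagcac
Mmp8, chr9:7558351-7558428, plus strand: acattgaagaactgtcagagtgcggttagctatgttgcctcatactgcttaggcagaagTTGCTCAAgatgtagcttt
Lcn2, chr2:32387912-32387989, minus strand: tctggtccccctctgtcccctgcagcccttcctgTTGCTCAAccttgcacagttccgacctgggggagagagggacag
S100a9, chr3:90695894-90695971, minus strand: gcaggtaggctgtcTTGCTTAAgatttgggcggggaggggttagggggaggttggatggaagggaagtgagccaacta
Retnlg, chr16:48872358-48872435, plus strand: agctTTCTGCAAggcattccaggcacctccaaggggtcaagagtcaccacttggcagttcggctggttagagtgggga

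These letters were not found in the windows of S100a8, Camp or Chil3, which says nothing of whether a factor binds there. The core letters of PU.1, another myeloid factor (GAGGAA on either strand), were in 4 of the 9 promoters, those of Lcn2, S100a8, Mmp8 and Ltf, against 28.3% of all, and TATAAA on either strand was in 4, those of S100a8, S100a9, Chil3 and Mmp8, against 13.6%. No match overlapped that of another motif. A match is a string of letters, not a measured binding site.

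The library as a whole sets the scale on which the members are read. The authors' values are FPKM, fragment counts scaled to the length of the transcript and to the size of the library. The mitochondrial genome took 5.02% to 6.66% of summed FPKM in the controls but 37.8% to 43.3% in the knockouts, and the median of all 15121 genes tested lay 0.81 lower in knockouts on the log2(FPKM + 1) scale. Changes are therefore given as deposited and after median-ratio rescaling, which brought that median to -0.03. As deposited, 8.91% of genes tested were called higher and 59.5% lower (limma, Benjamini-Hochberg adjusted p under 0.05), and after rescaling 18.7% and 17.1%. Nup214 itself went from 49.3 ± 11.8 FPKM (SD, n = 5) to 15.2 ± 4.76 (SD, n = 3). The change was -1.66 ± 0.25 on the log2 scale (SE; limma adjusted p = 0.000289) as deposited, and -0.74 after rescaling (adjusted p = 0.0483). Markers of stem cells were present in all 8 libraries, with summed levels of 1233 to 1631 FPKM in controls and 357 to 457 in knockouts; of 16, 12 fell and 1 rose as deposited, and 10 were lower and 3 higher after rescaling. The depth is not known directly. Judged from the steps between low values, a single fragment on a transcript 1 kb long counted for 0.0247 to 0.0621 FPKM, depending on the library.

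Transcripts of the late neutrophil programme were present in both groups, and 9 of the 10 genes did not pass the test. As deposited, 1 of 10 was called at all, against 68.4% of genes tested: 0 were higher (background 8.91%) and 1, Chil3, was lower (background 59.5%). The groups overlapped for 9 of the 10, and did not for Chil3, which was below; over all genes tested, knockouts lay wholly above controls in 7.89% and wholly below in 54.5%. After median-ratio rescaling S100a8 and S100a9 were called higher (2 of 10, against 18.7%) and 0 were called lower. The median log2 fold change of the members was 0.58 as deposited and 1.48 after rescaling, beside -0.81 and -0.03 for all genes tested. The median as deposited rests on single libraries: it was -0.13 without knockout replicate 3 and 1.44 without knockout replicate 2. These genes varied far more between libraries of 1 group than most: all 10 had a residual SD above the median of all genes tested, 0.32 on the log2 scale, with values from 1.02 for S100a8 to 1.95 for Ltf. Their intervals are correspondingly wide, so a gene that missed the threshold is not shown to be the same in both groups.

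**Figure D1:**
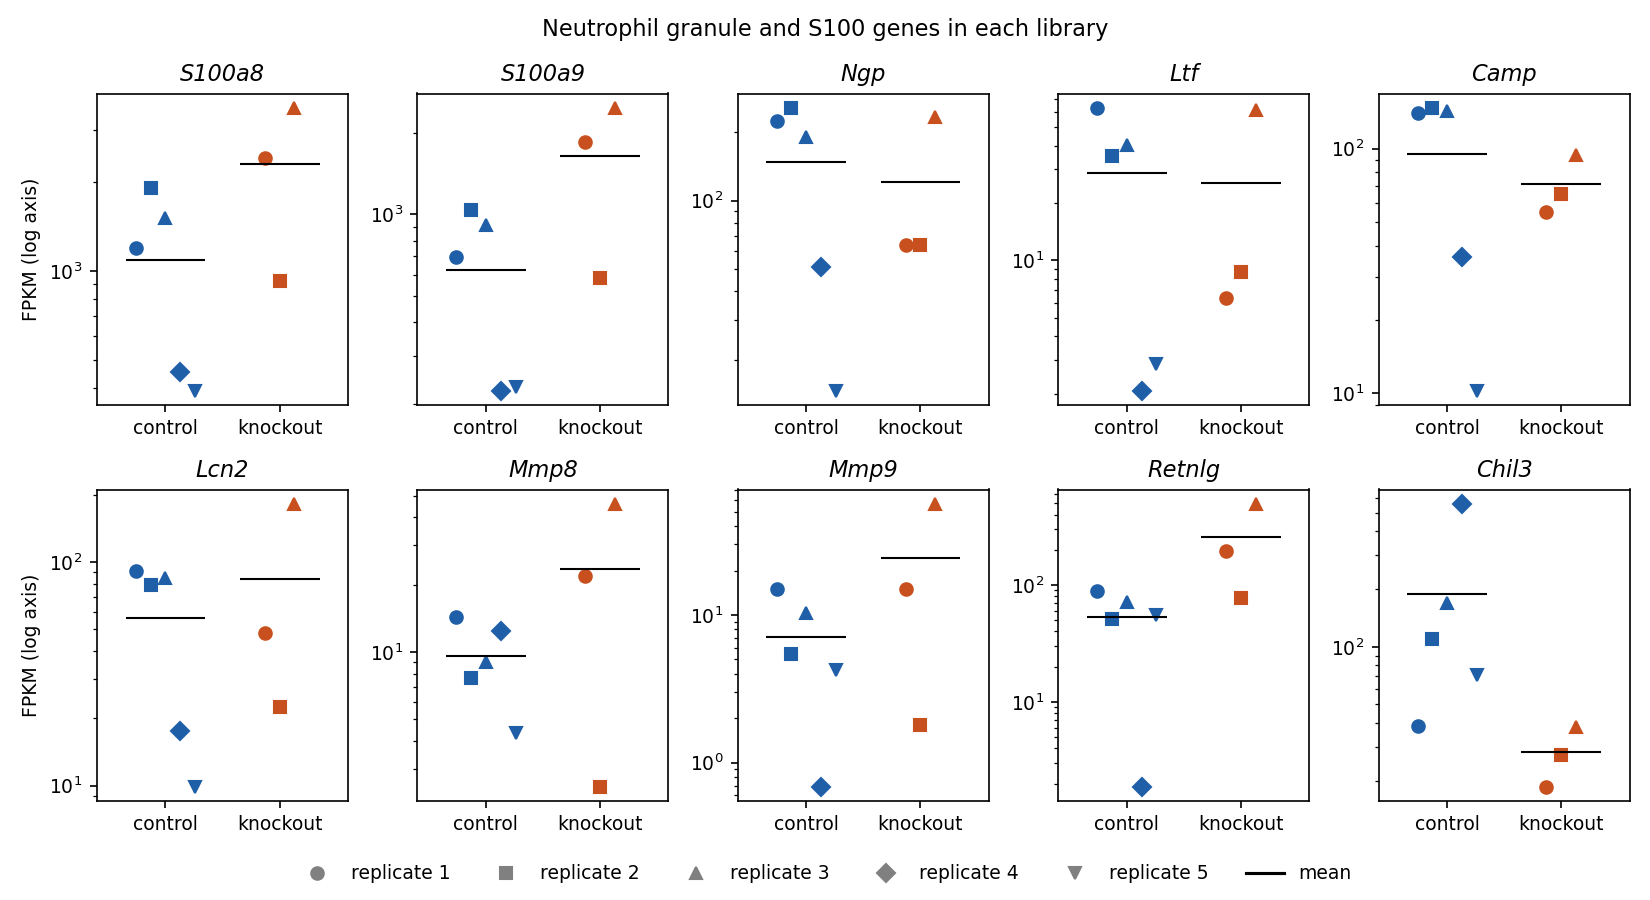
FPKM of each gene (log axis) in the 5 control libraries (blue) and the 3 knockout libraries (orange), with a marker shape for each replicate number and a line at the group mean. The groups overlap in every panel but that of Chil3, and knockout replicate 3 is the highest knockout library in all 10.

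S100a8 and S100a9 encode calcium-binding proteins that pair as calprotectin, which makes up much of the cytosolic protein of neutrophils and withholds zinc and manganese from microbes. S100a8 stood at 1192, 1909, 1508, 455 and 393 FPKM in control replicates 1 to 5 and at 2418, 924 and 3573 in knockout replicates 1 to 3. It was the highest of the 10 in both groups and ranked 64 among all 52097 genes by its mean over the 8 libraries. Control replicates 4 and 5 were low, and knockout replicate 2 lay within the range of the controls. The control mean was 1091 ± 661 FPKM (SD, n = 5) and the knockout mean 2305 ± 1328 (SD, n = 3), which gave a change of 1.14 ± 0.65 on the log2 scale (SE; 95% interval -0.37 to 2.65; limma adjusted p = 0.155).

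S100a9 had the same order of high and low libraries among the knockouts, and the same low pair among the controls. It stood at 698, 1038, 918, 224 and 230 FPKM in control replicates 1 to 5 and at 1850, 582 and 2480 in knockout replicates 1 to 3. The groups overlapped only through knockout replicate 2. The log2 fold change was 1.44 ± 0.70 (SE; 95% interval -0.17 to 3.05; limma adjusted p = 0.0986). After median-ratio rescaling it was 2.402 (adjusted p = 0.0280) for S100a9 and 2.099 (adjusted p = 0.0362) for S100a8, and both were also called with quantile normalization. When libraries were instead scaled to their total without mitochondrial genes, neither passed (adjusted p = 0.0601 and 0.0805). Without knockout replicate 2 S100a9 passed as deposited, at 2.07 (adjusted p = 0.0340).

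The balance between the pair does not depend on how libraries are scaled. S100a8 was 1.71, 1.84, 1.64, 2.03 and 1.70 times S100a9 in control replicates 1 to 5 and stood at 1.31, 1.59 and 1.44 times in knockout replicates 1 to 3. Every knockout ratio lay below every control ratio; this ratio was chosen after the values had been seen and was not tested. Together the pair made up 49.96% to 81.0% of the summed FPKM of the 10 genes in controls and 83.4% to 91.0% in knockouts.

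The secondary granule genes Ngp, Ltf, Camp and Lcn2 overlapped widely between the groups, and none passed. Ngp encodes neutrophilic granule protein, a cathelicidin-like protein of mouse. It stood at 224, 255, 189, 51.2 and 14.8 FPKM in control replicates 1 to 5 and at 64.1, 64.0 and 233 in knockout replicates 1 to 3. The log2 fold change was 0.03 ± 1.04 (SE; 95% interval -2.43 to 2.48; limma adjusted p = 0.985), so a difference of several fold in either direction lies within the interval.

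Camp encodes the mouse cathelicidin, whose cleaved peptide disrupts bacterial membranes. It stood at 140, 147, 143, 35.9 and 10.3 FPKM in control replicates 1 to 5 and at 54.9, 65.1 and 94.3 in knockout replicates 1 to 3. All 3 knockouts lay between the low pair of controls and the other 3, which differed among themselves by little. The log2 fold change was 0.10 ± 0.91 (SE; limma adjusted p = 0.931).

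Ltf encodes lactoferrin, which binds iron, and Lcn2 encodes lipocalin 2, which binds the siderophores that bacteria use to take it up. Ltf stood at 63.3, 35.4, 40.4, 2.08 and 2.86 FPKM in control replicates 1 to 5 and at 6.35, 8.70 and 61.6 in knockout replicates 1 to 3. Lcn2 stood at 91.2, 78.6, 84.5, 17.5 and 9.91 FPKM in the controls and at 48.0, 22.5 and 182 in the knockouts. In both, control replicates 4 and 5 were the 2 lowest of all 8 libraries. The log2 fold changes were 0.01 ± 1.32 for Ltf (SE; limma adjusted p = 0.993) and 0.51 ± 0.98 for Lcn2 (SE; adjusted p = 0.664). After rescaling none of these 4 passed (adjusted p between 0.288 and 0.636).

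The gelatinase and collagenase genes were low in level. Mmp8 encodes neutrophil collagenase of the secondary granules and Mmp9 gelatinase B, the marker enzyme of the tertiary granules. Mmp8 stood at 14.3, 7.67, 9.05, 12.4 and 4.33 FPKM in control replicates 1 to 5 and at 21.9, 2.50 and 46.0 in knockout replicates 1 to 3, so that the knockouts held both the highest and the lowest libraries. Mmp9 stood at 15.03, 5.41, 10.3, 0.69 and 4.22 FPKM in the controls and at 14.95, 1.79 and 56.7 in the knockouts. The log2 fold changes were 0.65 ± 0.77 (SE; limma adjusted p = 0.475) and 1.11 ± 1.06 (SE; adjusted p = 0.375). Without knockout replicate 2 Mmp8 passed, at 1.73 (adjusted p = 0.00775). Without knockout replicate 3 its value was -0.15 (adjusted p = 0.864). Mmp9 passed in neither case, at 2.26 without knockout replicate 2 (adjusted p = 0.064) and at 0.07 without knockout replicate 3 (adjusted p = 0.949).

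Retnlg, which encodes a resistin-like protein of mouse neutrophils and ranked 3 of the 10 by level in knockouts but 7 in controls, had the highest fitted fold change. It stood at 88.8, 51.0, 71.1, 1.89 and 55.2 FPKM in control replicates 1 to 5 and at 194, 76.8 and 495 in knockout replicates 1 to 3. Control replicate 4 was far below every other library, and knockout replicate 2 lay below control replicate 1. The log2 fold change was 2.47 ± 1.26 (SE; 95% interval -0.52 to 5.46; limma adjusted p = 0.12). Without control replicate 4 it was smaller, 1.57, but passed (adjusted p = 0.0356). After median-ratio rescaling it was 3.40 (adjusted p = 0.0663).

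Chil3 was the only one of the 10 whose fitted log2 fold change was below 0 as deposited, although the mean FPKM of Ngp (147 and 120), Ltf (28.8 and 25.5) and Camp (95.1 and 71.4) was also lower in knockouts than in controls. It encodes a chitinase-like lectin (Ym1) made by mouse neutrophils, by inflammatory monocytes and by alternatively activated macrophages. It stood at 38.4, 109, 170, 558 and 71.3 FPKM in control replicates 1 to 5 and at 18.7, 27.4 and 38.4 in knockout replicates 1 to 3. The groups did not overlap, as in 62.4% of genes tested, but the highest knockout, 38.37, and the lowest control, 38.40, were all but equal. The control mean was 189 ± 212 FPKM (SD, n = 5) and the knockout mean 28.1 ± 9.88 (SD, n = 3), and the controls averaged 97.3 without replicate 4. The log2 fold change was -2.15 ± 0.79 (SE; 95% interval -3.99 to -0.32; limma adjusted p = 0.0406). The call ended after median-ratio rescaling (-1.22, adjusted p = 0.251), when scaled to the non-mitochondrial total (adjusted p = 0.0994), with quantile normalization (0.226), with no filter on low genes (0.0509), and without control replicate 2 or 3 or any 1 of the knockouts (adjusted p between 0.0529 and 0.126). Reads of Chil3 could be shared with Chil4 (94.3% identical over 1540 aligned nt) and the pseudogene Gm6522 (95% over 1171 nt), but these were at no more than 1.14 and 0.19 FPKM in any library. None of the other members had an aligned stretch of at least 100 nt in another gene's transcript, except Retnlg with Retnla (84.1% over 567 nt), which was listed at 0 in all 8 libraries.

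**Figure D2:**
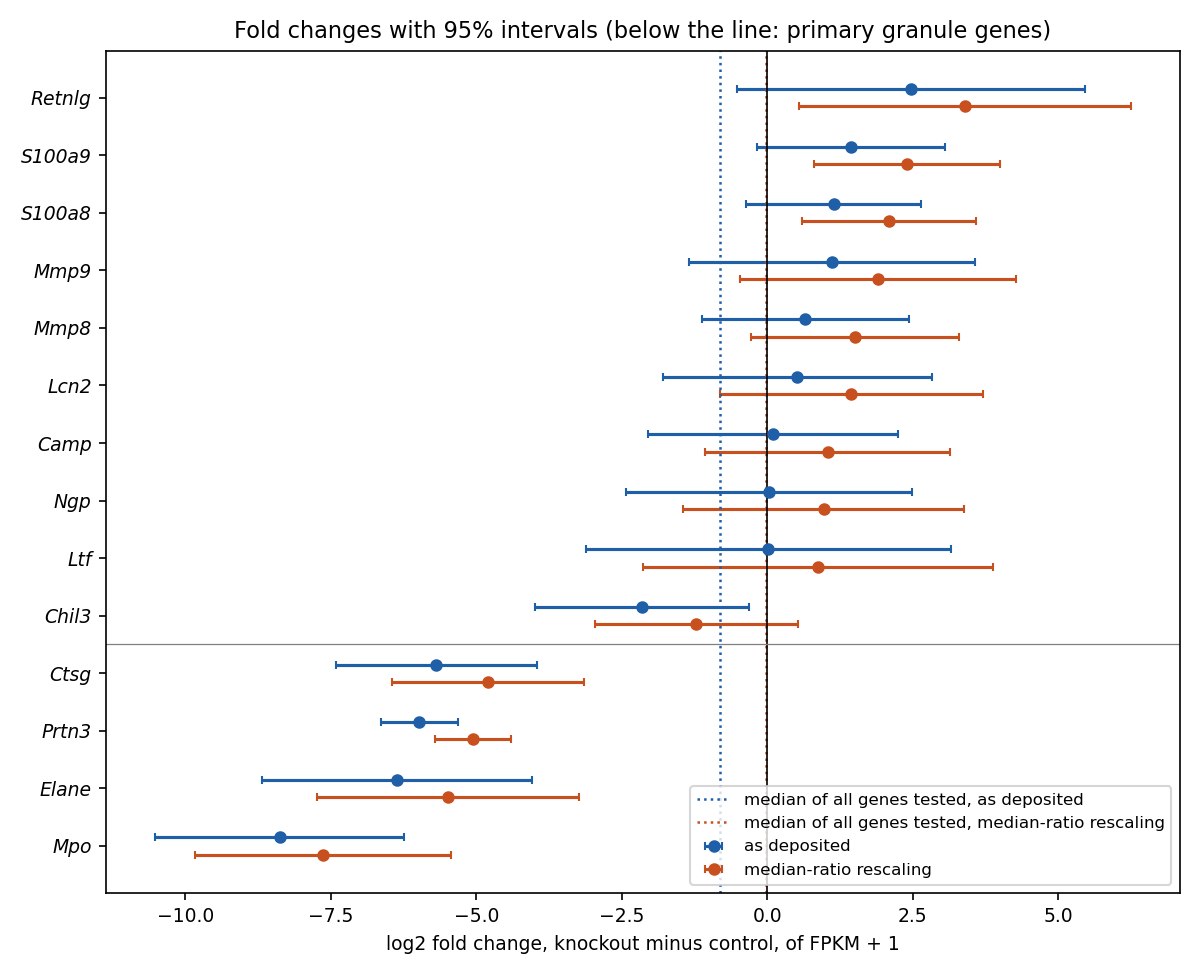
Log2 fold change of FPKM + 1, knockout minus control, with 95% intervals from limma, as deposited (blue) and after median-ratio rescaling (orange); dotted lines mark the median of all genes tested on each scale. The intervals of all members but Chil3 hold 0 as deposited, whereas those of Ctsg, Prtn3, Elane and Mpo lie wholly below it on both scales.

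The 9 genes other than Chil3 moved together among libraries of the same group. With the group means subtracted, their 36 pairs had Pearson correlations of log2(FPKM + 1) between 0.27 and 0.99 over the 8 libraries, with a median of 0.77. The closest pairs were S100a8 with S100a9 (r = 0.99) and Ngp with Camp (r = 0.96). The 9 pairs with Chil3 had values between -0.72 and 0.13, with a median of -0.20. All libraries share their normalization, and these correlations are descriptions.

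In 7 of the 10 genes, S100a8, S100a9, Ngp, Ltf, Camp, Lcn2 and Mmp9, the lowest pair of controls was replicates 4 and 5. Mmp8, Retnlg and Chil3 did not follow this order. Among the knockouts, replicate 3 was the highest for all 10 and replicate 2 the lowest for 7. The summed FPKM of the 10 genes was 2565, 3636, 3143, 1358 and 796 in control replicates 1 to 5 and reached 4691, 1774 and 7261 in knockout replicates 1 to 3, a range of 4.57-fold among controls and 4.09-fold among knockouts. This was 0.0991% to 0.40% of all FPKM in controls and 0.183% to 0.717% in knockouts. Of the FPKM outside the mitochondrial genome the 10 genes made up 0.106% to 0.429% in controls and 0.294% to 1.26% in knockouts.

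**Figure D3:**
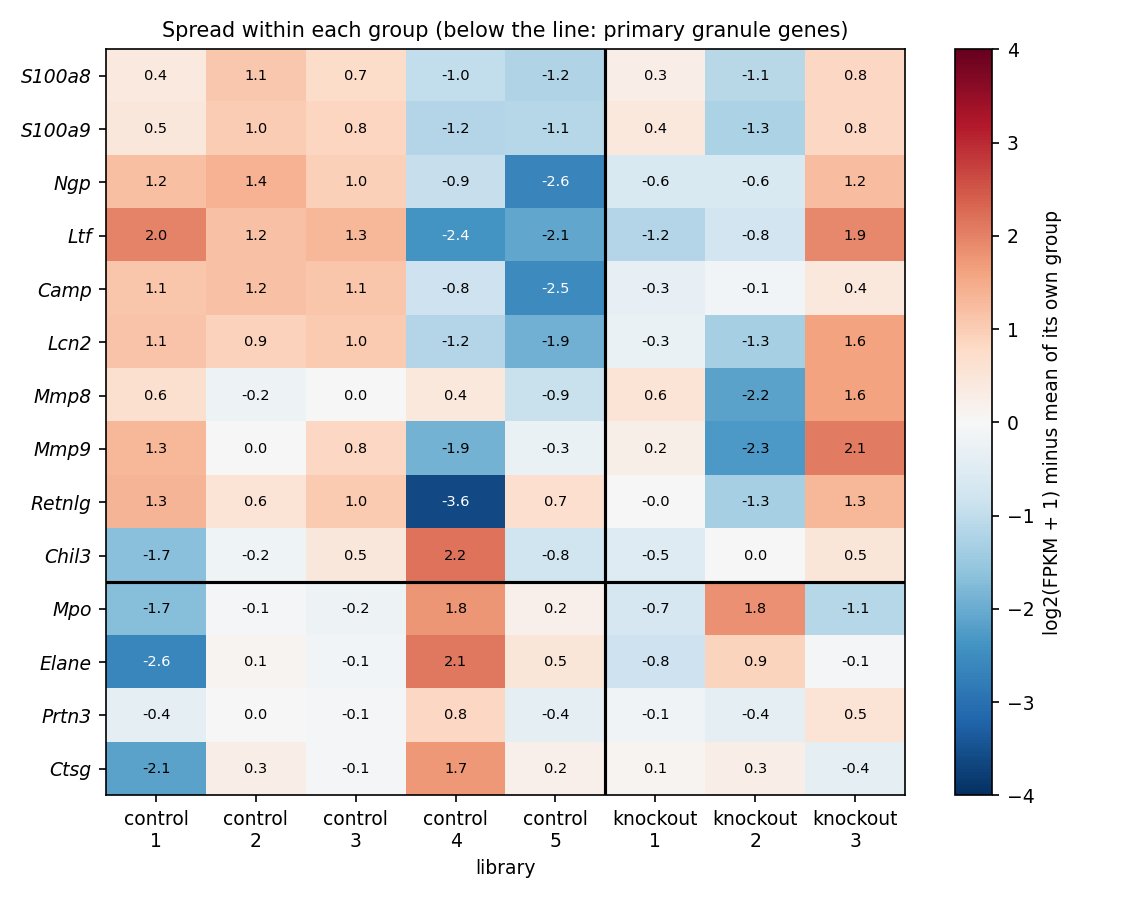
Each cell gives log2(FPKM + 1) of a gene in a library minus the mean of its own group, for the 10 members (above the line) and 4 primary granule genes (below it); red is above and blue below the group mean. Control replicates 4 and 5 are blue for S100a8, S100a9, Ngp, Ltf, Camp, Lcn2 and Mmp9, while Chil3 and the primary granule genes are red in control replicate 4.

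The 5 genes outside the list that followed the mean of the members most closely over the 8 libraries, group means subtracted, were the predicted gene Gm43689 (r = 0.98), A930005H10Rik, Imp3, Alkbh7 and Ankrd13b (each r = 0.95). Imp3 encodes a protein of the small subunit processome. Imp3 ranged from 96.2 to 127 FPKM in controls. Gm43689 was near the floor, at 0.56 to 2.59 FPKM in controls and 0 to 1.64 in knockouts, and Ankrd13b was at 0 to 0.57 in knockouts. None of the 5 is a granule gene. Neutrophil genes from the lists below came close to them, Ly6g with r = 0.95 and Wfdc21 with 0.92. The likeness over so few libraries is a description only.

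The primary granule genes, which come before the members in maturation, were measured in the same libraries. Of 11 listed, 10 were tested: 6 fell, beside 59.5% of all genes tested, 2 rose, beside 8.91%, and 2 did not pass. Their median log2 fold change was -3.54, beside -0.81 for all genes. Mpo, myeloperoxidase, stood at 333, 1055, 951, 3771 and 1265 FPKM in control replicates 1 to 5 and at 1.05, 10.8 and 0.49 in knockout replicates 1 to 3, which gave -8.38 ± 0.91 on the log2 scale (SE; limma adjusted p = 0.000164). Elane, Prtn3 and Ctsg, the serine proteases of the same granules, fell too, at -6.36, -5.98 and -5.69 on the log2 scale (adjusted p = 0.000929, 2.06e-06 and 0.000304), as did Serpinb1a, their inhibitor, at -3.84 (adjusted p = 1.56e-05). The 2 that rose, Ctsc and Nkg7, are also made by macrophages and by cytotoxic lymphocytes. After rescaling 6 were again lower, beside 17.1% of all genes tested, and 2 higher, beside 18.7%. The median was then -2.75, beside -0.03 for all genes tested.

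Set beside each other within a library, where scaling has no part, the early and late genes gave ratios that did not overlap between the groups. Summed Mpo, Elane, Prtn3 and Ctsg were 2.21, 5.64, 5.68, 82.8 and 81.6 times summed Ngp, Camp, Ltf and Lcn2 in control replicates 1 to 5. In knockout replicates 1 to 3 they were 0.123, 0.241 and 0.0497 times. The 2 controls with the highest ratios were the pair low in late genes; of these, replicate 4 was also the highest control in primary granule genes, at 8829 FPKM, while replicate 5, at 3084, was near replicates 2 and 3. These groupings were chosen after the values had been seen and carry no test.

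**Figure D4:**
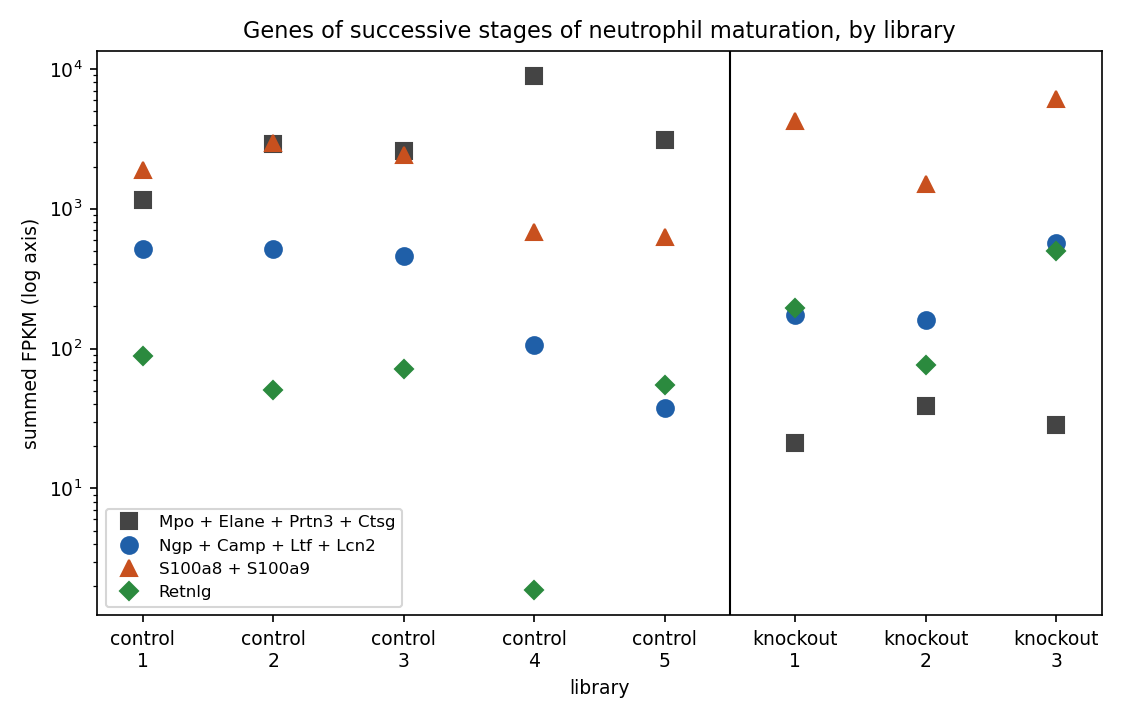
Summed FPKM (log axis) by library of 4 primary granule genes (squares), 4 secondary granule genes (circles), S100a8 with S100a9 (triangles) and Retnlg (diamonds). The primary granule sum is between 1147 and 8829 in controls and between 21.3 and 38.6 in knockouts, whereas the other sums overlap between the groups.

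Other genes of granules and secretory vesicles gave a mixed picture. Of all genes tested, 8.91% rose and 59.5% fell as deposited, and 18.7% were higher and 17.1% lower after rescaling. Of 20 listed, 19 were tested: 6 rose, 2 fell and 11 did not pass, with a median of 0.24, and after rescaling 11 were higher and 0 lower with a median of 1.19. Those with the smallest p were Slc11a1, the metal transporter of phagosomes, from 11.5 ± 3.09 to 85.9 ± 53.1 FPKM (adjusted p = 0.00017), Mmp25, a membrane-bound metalloproteinase of neutrophils, from 0.486 ± 0.110 to 4.30 ± 1.73 (adjusted p = 0.000144), and Ptx3, a pentraxin stored in secondary granules, from 0.056 ± 0.0841 to 1.99 ± 0.881 (adjusted p = 0.000281). Slc11a1 and Ptx3 are also made by macrophages. Genes were tested if they reached an FPKM of 1 in 3 libraries, which Mmp25 and Ptx3 did in the knockouts alone. They could thus enter the test only by being high there. When an FPKM of 1 was required in 5 libraries, 3 of 16 genes of this list were higher and 2 lower. Over all genes that filter gave 774 higher and 8800 lower of 13294 tested. The libraries of Lyz2, lysozyme, ran from 773 to 5349 FPKM in controls and from 792 to 2430 in knockouts (adjusted p = 0.627).

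Receptors of neutrophils also divided. Their counts stand beside 8.91% of all genes tested up and 59.5% down as deposited, and 18.7% and 17.1% after rescaling. Of 19 listed, 18 were tested: 6 rose, 2 fell and 10 did not pass (11 higher and 2 lower after rescaling). The chemoattractant receptor genes Fpr1, Fpr2 and C5ar1 rose, Fpr2 from 1.99 ± 0.333 to 18.6 ± 4.38 FPKM (adjusted p = 8.81e-06), while Csf3r, the receptor for G-CSF, fell from 56.2 ± 6.94 to 17.8 ± 6.98 (adjusted p = 0.000232). Fpr1, Fpr2 and C5ar1 are shared with macrophages. Ly6g, the surface antigen that defines mouse neutrophils, was low and followed the members: it stood at 8.43, 4.34, 7.09, 0 and 0.71 FPKM in control replicates 1 to 5 and at 4.98, 1.23 and 15.9 in knockout replicates 1 to 3 (adjusted p = 0.503). Cxcr2, the chemokine receptor of mature neutrophils, stood at between 2.90 and 4.01 FPKM in controls and at 22.2, 2.24 and 19.9 in knockouts (adjusted p = 0.0575, and 0.0194 after rescaling).

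Of 14 regulators of granulocyte formation, 2 rose, beside 8.91% of all genes tested, 5 fell, beside 59.5%, and 7 did not pass. Their median was -0.54 as deposited and 0.12 after rescaling, when 3 were higher, beside 18.7%, and 1 lower, beside 17.1%. When an FPKM of 1 was required in 5 libraries, 1 of 13 was higher and 5 were lower, beside 774 and 8800 of 13294. Runx1 and Spi1, which encodes PU.1, fell as deposited, at -1.52 and -1.25 (adjusted p = 9.65e-05 and 0.00016), and after rescaling Runx1 was at -0.60 (adjusted p = 0.0365) and Spi1 at -0.30 (adjusted p = 0.185). Lmo4 fell by 1.02 (adjusted p = 0.000627) and was at -0.10 after rescaling. Cebpe, which encodes C/EBPε, stood at 3.24, 6.48, 7.80, 17.8 and 6.23 FPKM in controls and at 1.64, 6.05 and 6.62 in knockouts (adjusted p = 0.255). Its highest library was control replicate 4, which was among the lowest for the secondary granule genes.

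The S100, resistin, chitinase and metalloproteinase relatives of the members gave mixed values. The shares of all genes tested were 8.91% higher and 59.5% lower as deposited, and 18.7% and 17.1% after rescaling. Of 14 other S100 genes 9 were tested, of which 1 rose and 3 fell (4 higher and 0 lower after rescaling). S100a16 rose from 0.280 ± 0.307 to 15.2 ± 6.97 FPKM (adjusted p = 1.27e-05), while S100a1 and S100a11 had log2 fold changes of -1.34 and -0.74 as deposited (adjusted p = 0.0169 and 0.0222) and of -0.40 and 0.21 after rescaling (adjusted p = 0.472 and 0.523). Of 9 resistin and chitinase-like relatives only 2, Chil1 and Chil5, were expressed enough to test, and neither passed (adjusted p = 0.494 and 0.706). Of 20 other metalloproteinase and TIMP genes 11 were tested, and 7 rose and 4 fell. Mmp13, a collagenase, went from 0.172 ± 0.118 to 3.99 ± 0.506 FPKM (limma adjusted p = 1.91e-05), and Mmp11 from 7.03 ± 0.602 to 0.50 ± 0.544 (adjusted p = 2.85e-05). S100a16 and Mmp13 reached an FPKM of 1 in the knockouts alone, so they could enter the test only by being high there. When an FPKM of 1 was required in 5 libraries, 0 of 7 other S100 genes were higher and 3 lower. Of 6 metalloproteinase and TIMP genes then tested 3 were higher and 3 lower. The counts over all genes were then 774 higher and 8800 lower of 13294. Of 13 genes for receptors or binding partners of the members' products 10 were tested, of which 4 rose (Tlr4, Cd36, Fpr2 and Lrp1) and 2 fell as deposited, while 5 were higher and 0 lower after rescaling. Cd36 went from 2.34 ± 1.26 to 63.8 ± 35.05 FPKM (adjusted p = 3.96e-05) and Lrp1 from 10.01 ± 2.58 to 26.6 ± 6.16 (adjusted p = 0.000512).

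Markers of other cells that the sort could hold differed between the groups and between libraries; the counts are as deposited, where 8.91% of all genes rose and 59.5% fell. Of 12 neutrophil markers 3 rose (Mmp25, Trem1 and Stfa2l1), 2 fell (Csf3r and Padi4) and 7 did not pass, and their summed level was 169 to 225 FPKM in controls and 56.4 to 290.2 in knockouts. Of 13 macrophage markers tested 12 rose, with sums of 403 to 513 FPKM in controls and 1936 to 7987 in knockouts. Of 15 T and NK cell markers 14 rose, with sums of 391 to 994 and 2034 to 2734 FPKM, and of 11 stromal and endothelial markers tested 8 rose and 2 fell. Of 12 monocyte markers 2 rose and 2 fell, with sums of 492 to 4199 FPKM in controls and 933 to 1185 in knockouts. Of 7 B lymphocyte markers tested 4 fell, of 11 erythroid markers 2 rose and 4 fell, and of 14 eosinophil, basophil and mast cell markers 2 rose and 3 fell. When an FPKM of 1 was required in 5 libraries, 1 of 10 neutrophil markers was higher and 2 were lower. Of 7 stromal and endothelial markers then tested 4 were higher and 2 lower. The macrophage (12 of 13) and T and NK cell (14 of 15) counts stayed the same. All genes then gave 774 higher and 8800 lower of 13294. After median-ratio rescaling 18.7% of all genes tested were higher and 17.1% lower. Of the neutrophil markers 5 were then higher and 2 lower, and of the monocyte markers 3 and 1. Of the macrophage markers 12 were higher and 0 lower, and of the T and NK cell markers 15 and 0. On that scale 8 stromal and endothelial markers were higher and 1 lower, 1 and 1 of the B lymphocyte markers, 3 and 3 of the erythroid markers, and 3 and 1 of the eosinophil, basophil and mast cell markers.

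Some of these markers were high in single libraries that were also high or low for the members. Control replicate 4, highest for Chil3, was the highest control for the monocyte genes Ly6c2, at 3199 FPKM against 323 to 1141 in the other controls, and F13a1, at 194 against 8.25 to 42.9. Knockout replicate 2, lowest for 7 members, was the highest knockout for the complement gene C1qa of macrophages, at 1777 FPKM against 456 and 975, and for the eosinophil granule genes Prg2, at 2081 against 26.5 and 15.4, and Epx, at 103 against 1.25 and 2.55. With the group means subtracted, Ly6c2 and F13a1 had r = 0.83 and 0.85 with Chil3 over the 8 libraries, but -0.38 and -0.59 with the mean of the members. Against that mean, Prg2 had -0.60, Epx -0.61 and C1qa 0.03. Monocyte genes were not alone in following Chil3. The primary granule genes Elane, Prtn3, Ctsg and Mpo had r = 0.83, 0.85, 0.82 and 0.63 with it, and Cebpe had 0.89, whereas Ly6g had -0.41. Other granule and vesicle genes tested ran from -0.13 (Arg2) to 0.97 (Ltb4r1) with Chil3, with Wfdc21 at -0.10 and the rest positive. Among them Cyba, Lyz2 and Hp had 0.94, 0.92 and 0.90. Neutrophil receptor genes ran from -0.95 (C5ar1) to 0.85 (Lilrb4a). The part of monocytes, macrophages, eosinophils or promyelocytes in the members' values was not tested.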

How the data were processed

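The 8 libraries were made from total RNA amplified by Geo-seq and built into libraries with a TruePrep kit, as the labels' protocols state. The authors deposited FPKM values, without counts, for 52097 genes; build mm10 and the tools HTSeq, DESeq2, Cufflinks 2.1.1 and Bowtie 0.12.9 are listed in the submitters' processing notes with no roles. The sources used here do not give the annotation, any filters or the use of strand. Groups came from the genotype labels. FPKM is relative to each library's own total, so a larger mitochondrial share leaves a smaller share for the other genes. With libraries scaled to the non-mitochondrial total, the median of all genes tested was -0.44 on the log2 scale, beside -0.81 as deposited.

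Symbols, coordinates and transcripts came from GENCODE M21 on GRCm38; all identifiers matched. The knockout effect was fitted in R 4.3.3 with limma 3.58.1 (trend and robust options) on log2(FPKM + 1). The test took in 15121 genes, those that reached an FPKM of 1 in 3 or more libraries, with Benjamini-Hochberg adjustment over all of them and a threshold of 0.05. All 10 members passed this filter. A gene could also pass it through the 3 knockouts alone. Fold changes are knockout minus control on that scale, which understates low genes. The model was tested on simulated data. Since separate animals are not stated, p-values reflect only how these libraries vary, and some of that variation may be technical. Median-ratio factors came from tested genes above 0 in all libraries; non-mitochondrial totals left out the mitochondrial chromosome. Depth was estimated from genes with 1 transcript of 600 to 2500 nt, in which 80.2% to 91.7% of low values fell within 0.15 fragments of a whole number, against 30% by chance. Similar transcripts were sought with BLAST+ 2.17.0.

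The members and lists were chosen with earlier results of these data known. Genes named outside the members were the 3 with the smallest p in each list, the 4 main primary granule genes, the 5 most alike and Nup214; for the lists of other cells, fewer are described. Ly6g, Cxcr2, Cebpe, Lyz2, Ly6c2, C1qa, Prg2, Epx, Tlr4, Trem1, Stfa2l1, Ctsc, Nkg7, Wfdc21, Ltb4r1, Arg2, Cyba, Hp, Lilrb4a, the ratios and the motifs were added after values or sequences had been seen.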

Additional observations from a re-analysis of the deposited data

Results flagged for a closer look

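Chil3 in control replicate 4, at 558 FPKM, stood apart from the other 4 controls, which ran from 38.4 to 170 FPKM: its gap to the nearest was 0.747 of the whole range, above Dixon's 95% critical value of 0.710 for 5 libraries. It was the only gene of the 10 so marked in this check of the controls, and chance marks about 1 in 20 groups. The check was made on FPKM, not on the log2(FPKM + 1) scale of the fits. On that scale Retnlg in control replicate 4 was further from its group mean, at -3.61, with the other controls at 0.56 to 1.35. Chil3 in control replicate 4 was at 2.17. Without that library the log2 fold change of Chil3 was -1.61 (limma adjusted p = 0.0164).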

How the results depend on the processing

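The number of members called was small under every alternative run, and which members passed depended on the scaling and on single libraries. As deposited 0 were called higher and 1 lower. Median-ratio rescaling and quantile normalization each called 2 higher (S100a8 and S100a9) and 0 lower, and rescaling to the non-mitochondrial total and the fit without a filter each called 0 lower. Over all genes, 1348 were higher and 8997 lower as deposited (13% of calls higher), 2827 and 2583 with median-ratio rescaling (52.3%), 2530 and 3079 with quantile normalization (45.1%), 1790 and 5898 with the non-mitochondrial total (23.3%), 3561 and 8203 without a filter (30.3%), and 774 higher with the stricter filter of 5 libraries. Leaving out 1 library at a time gave 0 to 2 members higher and 0 to 1 lower, 847 to 1351 genes higher and 8379 to 8792 lower, and a median of the members between -0.13 and 1.44. In those fits the values of Ngp ran from -0.63 to 0.37, of Ltf from -0.95 to 0.60, of Camp from -0.54 to 0.39, of Lcn2 from -0.30 to 1.18, of Mmp8 from -0.15 to 1.73 and of Mmp9 from 0.07 to 2.26, so the direction of the first 5 is not settled. Both smaller pseudocounts and the fit without the robust option changed no call of a member.

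Same-numbered control and knockout libraries did not deviate together over all genes tested (r = -0.04, 0.03 and -0.04). This cannot show whether they shared a preparation, since one that moved few genes would leave r near these values. With the replicate block 1 member was higher (Retnlg) and 2 lower (Chil3 and Camp), and the signs of Ngp, Ltf, Camp and Lcn2 turned, to -1.16, -1.48, -1.03 and -0.52, with a median of the members of -0.07; in that fit control replicates 4 and 5, which share no number with a knockout, no longer bear on the comparison. Of 578 counts of the other lists under alternatives, 506 stayed within 1.5 times and 72 did not. With 5 and 3 libraries and this spread, differences of several fold in the secondary granule genes cannot be told from none.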
